A study of Mus musculus with 18 samples.

Results

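On mouse chromosome 11, the 930 kb that lie upstream of the α-globin topologically associating domain (TAD) were examined, from 31150000 to 32079999 of mm9. The members are the DpnII restriction fragments whose midpoint falls in this interval, 2289 of the 295450 fragments of the chromosome (0.775%). The interval was set by position alone, with no measured value. NG Capture-C was used to count the ligation products that each fragment formed with a chosen viewpoint fragment in Ter119+ erythroid cells, which were isolated from the spleens of adult C57BL/6 mice given phenylhydrazine, which causes anaemia by breaking down red blood cells and so drives the spleen to make new ones. The 18 samples form 6 groups of 3. Experiment 1 compared WT with ∆44/48, in which the CTCF sites HS + 44 and HS + 48 downstream of the locus are deleted. Experiment 2 compared WT with ∆θ1, ∆θ2 and ∆θ1/θ2, in which the CTCF sites at the θ-globin genes *Hbq1b* and *Hbq1a* are deleted singly or together. The edited mice were made with CRISPR-Cas9 as homozygous germline models, so that the deletions are not limited to erythroid cells. The cell type is as labelled, since chromatin contacts give no expression marker to check it with. In experiment 1 contacts were read from HS-38, R1, R2 and the *Hba-a1* and *Hba-a2* promoters. In experiment 2 only the promoters lie on this chromosome. Both promoters were summed and are written Hba-1/2. Their near-identical sequences share molecules, so that the sum can count a ligation product more than once. In WT of experiment 1, 90.7 to 92.0% of the upstream fragments listed under Hba-1 were also listed under Hba-2. In replicate 1 up to 3466 of the 4224 upstream counts of Hba-1 were shared. The counts, count filters, errors and p-values of Hba-1/2 rest on this sum.

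A TAD is a stretch of chromosome whose sequences contact each other more often than they contact the flanks. CTCF, bound at sites of a given orientation, halts cohesin that extrudes loops of chromatin, and such sites are common at domain ends. R1 and R2 are enhancers of α-globin that lie in introns of *Nprl3*, HS-38 is a CTCF site on the upstream side of the enhancers, and *Hba-a1* and *Hba-a2* encode the α chain of adult haemoglobin. A viewpoint contacts its neighbourhood most, and contacts with sequence outside its domain fall with distance. The upstream flank holds 8 annotated genes. Nearest to the TAD are *Gm12108*, a processed transcript, *Nsg2*, which encodes a vesicle protein of neurons, and *4930524B15Rik*. *Cpeb4*, which encodes a cytoplasmic polyadenylation element binding protein that controls translation in late erythroid differentiation, follows with the processed transcripts *Gm12107* and *D630024D03Rik*. *Bod1*, needed to orient chromosomes in mitosis, and *Stc2*, which encodes a secreted glycoprotein, are the farthest.

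The fragments contacted most often fell into 2 places, and 3 of them are shown as the sequence behind the values that follow. Each is read 5′ to 3′ on the forward strand of NCBIM37, the assembly of mm9, from the start of the fragment, and the capitals mark the inner end of the DpnII site GATC.
edge fragment, chr11:32075740-32076600, its first 300 bases: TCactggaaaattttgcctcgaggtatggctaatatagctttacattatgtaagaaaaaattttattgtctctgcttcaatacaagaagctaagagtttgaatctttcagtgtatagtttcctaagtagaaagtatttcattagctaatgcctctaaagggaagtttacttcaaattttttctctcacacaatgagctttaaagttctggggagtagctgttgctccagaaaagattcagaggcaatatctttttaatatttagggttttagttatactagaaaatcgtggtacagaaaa
*Gm12107* fragment, chr11:31735278-31736367, its first 300 bases: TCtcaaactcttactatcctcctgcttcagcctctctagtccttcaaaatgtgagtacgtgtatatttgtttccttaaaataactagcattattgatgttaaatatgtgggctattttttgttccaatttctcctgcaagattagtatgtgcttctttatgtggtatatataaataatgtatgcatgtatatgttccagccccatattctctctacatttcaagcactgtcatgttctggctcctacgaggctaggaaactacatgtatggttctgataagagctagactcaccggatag
fragment between *Gm12107* and *Cpeb4*, chr11:31743741-31744152, its first 300 bases: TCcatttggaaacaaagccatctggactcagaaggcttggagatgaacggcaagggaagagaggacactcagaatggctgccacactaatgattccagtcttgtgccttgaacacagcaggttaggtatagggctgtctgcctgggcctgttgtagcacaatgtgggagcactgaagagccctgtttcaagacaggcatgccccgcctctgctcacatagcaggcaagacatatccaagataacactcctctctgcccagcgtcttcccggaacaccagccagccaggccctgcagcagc
The edge fragment is intergenic, 3.83 kb from the TAD, and was among the 3 highest of all members from HS-38 in WT. The *Gm12107* fragment overlaps an exon, 344 kb from the TAD, and ranked second from Hba-1/2. The last fragment is intergenic, 5527 bp from *Gm12107*, and was among the 3 highest from R2.

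The depth set how finely the interval could be read. Samples of experiment 1 held 345162 to 1120609 counts in all, those of experiment 2 8820 to 232346. In WT of experiment 1 the upstream interval itself received 5612 to 6770 counts from HS-38, 3727 to 4694 from R1, 4158 to 5358 from R2 and 8431 to 11082 from Hba-1/2. In experiment 2 it received 1130 to 3235 counts in WT, 1505 to 4372 in ∆θ2, 1037 to 2627 in ∆θ1/θ2 and only 135 to 345 in ∆θ1. Replicate 1 of ∆44/48 stood apart, with 61.5% of its HS-38 counts in cis against 77.5% and 80.2% in the other replicates, and the main values of ∆44/48 are also given without it. Of the members, 2096 were hit at least once and 193 never, and 158 of the latter are shorter than 100 bp. Contacts are given as a density, the counts per kb out of every 100000 that the same viewpoint had in cis, with the SD over 3 samples.

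In WT the upstream flank was contacted in 2 places, next to the TAD and again farther out, with a trough between them. In the 30 kb bin that adjoins the TAD, the density from HS-38 was 60.6, 60.2 and 67.7 in the WT samples of experiment 1. It was 26.3, 27.8 and 30.6 from R1, 20.7, 20.3 and 22.6 from R2, and 23.2, 26.2 and 27.4 from Hba-1/2. HS-38 thus gave more contacts here than any of the other viewpoints in every sample. The density inside the TAD edge was higher still, and the first 30 kb inside exceeded the first 30 kb outside by 3.39 ± 0.231 fold from HS-38, 4.01 ± 0.0964 fold from R1, 3.42 ± 0.0844 fold from R2 and 3.81 ± 0.282 fold from Hba-1/2 (SD, n = 3).

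The trough lay over *Nsg2*, lowest at 150 to 180 kb from the TAD on average over viewpoints. There the density was 5.85 ± 1.47 from HS-38, 4.13 ± 0.523 from R1, 3.47 ± 0.648 from R2 and 3.58 ± 0.463 from Hba-1/2. Beyond it lay a second maximum. By the rule that a bin must reach 50% of the highest of these bins, averaged over viewpoints, this maximum spans 5 bins, chr11:31660000-31809999, 270 to 420 kb from the TAD. It was delimited from these densities, so that its height is a description. The bins just inside had 13.1 and 13.7 and the bins just outside 10.9 and 10.6. It holds the start of *Cpeb4* and all of *Gm12107* and *D630024D03Rik*. Its density was 15.9 ± 0.331 from HS-38, 19.0 ± 0.901 from R1, 20.2 ± 1.91 from R2 and 18.6 ± 0.950 from Hba-1/2, which is 2.82, 4.67, 5.88 and 5.22 fold that of the trough. These 150 kb are 16.1% of the interval's length and took 26.7% of its counts from HS-38, 40.6% from R1, 45.4% from R2 and 41.7% from Hba-1/2. Leaving out the 10 bins of 10 kb next to the TAD, the highest 10 kb bin lay at 340 to 350 kb from the TAD, over *Gm12107*, from all 4 viewpoints, with densities of 23.0 ± 2.32, 31.7 ± 0.967, 34.6 ± 5.83 and 33.6 ± 2.17 in the same order. In the outer part, from 570 kb to 930 kb, the mean density of any 30 kb bin lay between 0.366 and 2.67.

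**Figure D1:**
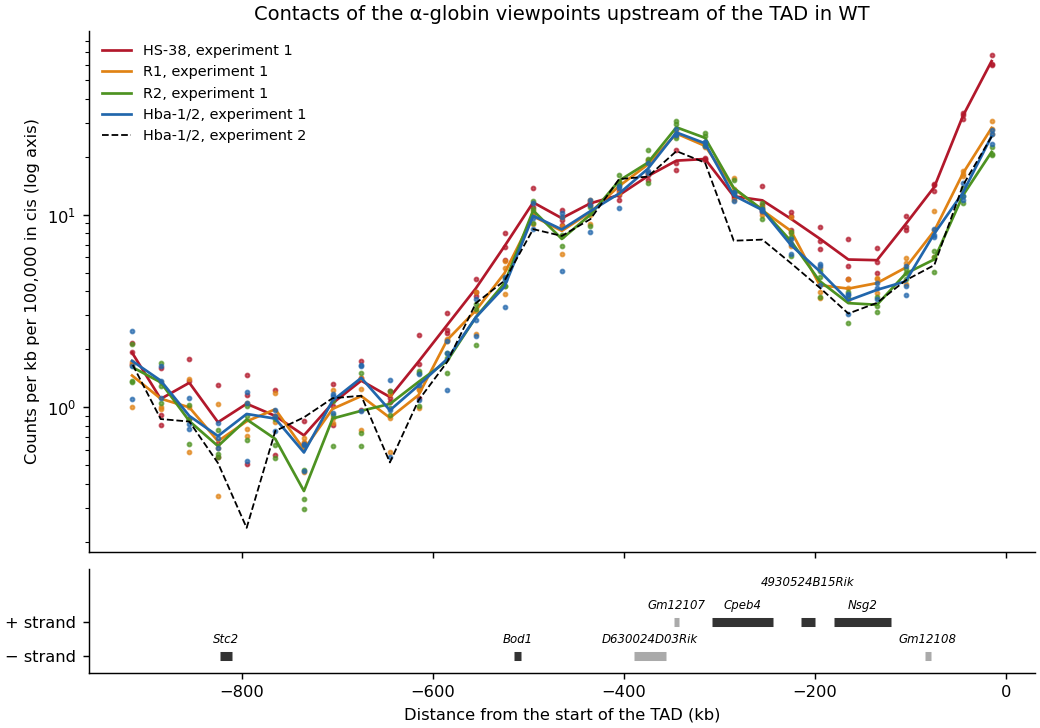
Density of contacts in 30 kb bins (counts per kb per 100000 in cis, log axis) against the distance from the TAD start in kb, in WT, for each viewpoint, with points for the samples of experiment 1, lines for means and the annotated genes below. All lines fall from the TAD to a trough 120 to 180 kb away, climb to a second maximum and fall again. The highest bin of this maximum is 330 to 360 kb away (300 to 330 kb from HS-38). The mean over viewpoints in experiment 1 is lowest, 0.566, at chr11:31330000-31359999 and is 1.68 in the outermost bin.

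The same profile was seen in the WT samples of experiment 2, which the rule for the second maximum did not use. There Hba-1/2 had densities of 14.6, 16.9 and 15.5 in the second maximum and 1.76, 4.18 and 3.26 in the trough, so that the second maximum was the higher in 3 of 3 samples. It held 39.8% ± 0.507 (SD, n = 3) of the interval's counts. When each bin was divided by a profile that can only fall with distance, the bins highest above it in experiment 1 were those at 330 to 360 kb, 300 to 330 kb and 900 to 930 kb, with mean log2 ratios of 1.10, 0.96 and 0.75. The lowest were those at 150 to 180 kb, 120 to 150 kb and 180 to 210 kb, with −1.50, −1.43 and −1.16. In experiment 2 these 6 bins had log2 ratios of 1.17, 0.98, 1.09, −1.71, −1.44 and −1.18. Over the 31 bins the mean densities of 2 viewpoints in WT correlated with Pearson's r between 0.962 and 0.995 in experiment 1, as a description, since the viewpoints share libraries and the fall with distance. Base composition and the number of fragments went with density less closely, with r of 0.17 for GC content and −0.41 for fragments per bin, against −0.64 for distance from the TAD.

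Among the genes, contact density did not follow the order along the chromosome. The 10 kb around the start of *Cpeb4* had 22.4 ± 0.610 from HS-38, 28.6 ± 1.48 from R1, 29.4 ± 1.60 from R2 and 28.0 ± 0.216 from Hba-1/2. Its whole body had less, 13.3 ± 0.989, 13.9 ± 1.08, 14.5 ± 1.28 and 13.4 ± 0.147. The *Gm12107* body had 25.0 ± 2.88, 32.3 ± 0.697, 36.9 ± 5.01 and 31.2 ± 2.32 from the same viewpoints. Both lie over 300 kb from the TAD. *Nsg2* is nearer, its start 180 kb away, and its body had 5.76 ± 1.21, 4.24 ± 0.0941, 3.35 ± 0.482 and 3.78 ± 0.368. *4930524B15Rik* was also low, with 7.46 ± 1.14 from HS-38 and 4.15 ± 0.489 from R1. *Gm12108*, whose start is the nearest to the TAD, had 10.6 ± 3.02 and 8.23 ± 1.87 from these 2 viewpoints. The body of *D630024D03Rik* had 15.9 ± 0.178 and 18.2 ± 1.58, and that of *Bod1*, 508 kb out, 7.90 ± 0.536 and 6.47 ± 0.689. *Stc2*, 810 kb out, had 1.14 ± 0.591 and 0.626 ± 0.413.

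Single fragments carried small parts of these totals. The edge fragment received 63.6, 51.8 and 66.7 counts per 100000 in cis from HS-38 in WT, and 35.1, 37.1 and 38.7 from R1. HS-38 exceeded R1 there in every sample. The *Gm12107* fragment received 20.0, 33.3 and 29.3 from Hba-1/2 in WT of experiment 1 and 26.3, 25.4 and 25.7 in WT of experiment 2. The fragment between *Gm12107* and *Cpeb4* received 21.6, 28.3 and 26.2 from R2. Beside it, the fragment at chr11:31742783-31743657 received 15.8, 28.3 and 34.9 from R2, and that at chr11:31744153-31744757 received 17.3, 43.7 and 17.4. The samples of these neighbouring fragments overlap. An intergenic fragment 5.14 kb from the TAD (chr11:32074164-32075550) received 62.1, 37.2 and 54.6 from HS-38 and 25.7, 34.5 and 24.4 from Hba-1/2, of whose fragments it was the highest.

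A CTCF core motif, CCNNNAGGGGGCNC on either strand, was searched for in the reference. It matched 255 times on the chromosome, 4 times in the TAD and 1 time in the upstream interval, and 5.93% of all 30 kb bins of chromosome 11 held a match. The match lies 725 kb from the TAD, on the forward strand, and is intergenic, 84875 bp from *Stc2*. It is shown in capitals with 30 bases on each side.
motif match, chr11:31354919-31354992: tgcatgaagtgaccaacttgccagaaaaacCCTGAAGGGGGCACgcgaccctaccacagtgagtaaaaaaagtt
Its bin had low densities in WT of 0.713 ± 0.112 from HS-38 and 0.581 ± 0.0987 from Hba-1/2. No match was found in the bins of the second maximum or next to the TAD, which says only that these letters are not there.

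Whether the CTCF site, the enhancers and the promoters differ in their contacts with the flank was asked in WT of experiment 1, where every library holds all viewpoints. Over the whole interval the density was 9.14, 9.67 and 10.0 from HS-38. It was 7.03, 7.81 and 7.84 from R1, 6.44, 7.41 and 7.65 from R2, and 6.47, 7.48 and 7.68 from Hba-1/2. HS-38 was higher than each other viewpoint in all samples. In a quasi-likelihood fit by edgeR, blocked on the sample and Benjamini-Hochberg adjusted over all 930 kb windows of the chromosome, the log2 difference was 0.35 ± 0.0344 (SE) against R1 (adjusted p = 3.51e-18), 0.42 ± 0.0417 against R2 (adjusted p = 1.67e-11) and 0.42 ± 0.0331 against Hba-1/2 (adjusted p = 1.82e-26). With 2 libraries the differences stayed between 0.33 and 0.44, but the calls did not all hold. Against R1 the adjusted p was 0.274 without replicate 3, against R2 it was 0.0110 to 0.156, and against Hba-1/2 it was 0.0418 at most, with the call lost without replicate 1 and without replicate 2.

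The excess of HS-38 was largest in the 310 kb next to the TAD. There the density was 17.1 ± 0.764 from HS-38, 10.7 ± 0.692 from R1, 9.26 ± 0.621 from R2 and 9.80 ± 0.509 from Hba-1/2. The log2 difference was 0.67 against R1 (edgeR, adjusted p = 1.50e-48), 0.89 against R2 (adjusted p = 1.30e-15) and 0.80 against Hba-1/2 (adjusted p = 9.32e-13). In the middle 310 kb, which hold the second maximum, the differences were −0.06 (95% interval −0.15 to 0.03), −0.10 (−0.21 to 0.01) and −0.03 (−0.12 to 0.06), and none passed the threshold. Those against R2 and Hba-1/2 depended on the setting. With zones wider by 5 kb they were −0.25 and −0.24, past the threshold, and with TMM factors 0.018 and 0.16. In the far 310 kb the differences were 0.25 (95% interval 0.03 to 0.48), 0.28 (0.05 to 0.51) and 0.13 (−0.07 to 0.33). The adjusted p of edgeR was 0.241, 0.134 and 0.482. In the nearest 310 kb the call was lost against R1 without replicate 2 (adjusted p = 0.0312) and against R2 without replicate 1 (adjusted p = 0.0312), and it held against Hba-1/2 with any replicate left out.

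In 30 kb bins, HS-38 was higher than R1 in 2 of the 31 bins and lower in 0, against 0.309% and 0.0882% of all bins tested on the chromosome. Both bins lie within 60 kb of the TAD. Against R2, 7 bins were higher and 1 lower, against 0.983% and 0.533% of all bins. The 7 bins are the 210 kb next to the TAD. Against Hba-1/2, 7 were higher and 1 lower, against 0.683% and 0.878%. Of these 7, 6 lie within 210 kb of the TAD and 1 at 510 to 540 kb. The difference next to the TAD was 1.15 ± 0.0560, 1.57 ± 0.0690 and 1.30 ± 0.0621 on the log2 scale in the same order. The bin where HS-38 was lower, than R2 by 0.58 and than Hba-1/2 by 0.49 on the log2 scale, is the bin of the second maximum that is highest from R1, R2 and Hba-1/2, 330 to 360 kb from the TAD (edgeR, adjusted p = 4.95e-05 and 1.86e-07). Against R1 the same bin fell short of the threshold, at −0.47 with an adjusted p of 0.0833. With any one of the WT replicates left out, no bin was called against R1 and 2 to 5 were called against R2. Against Hba-1/2 the count ran from 0, without replicate 3, to 11.

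**Figure D2:**
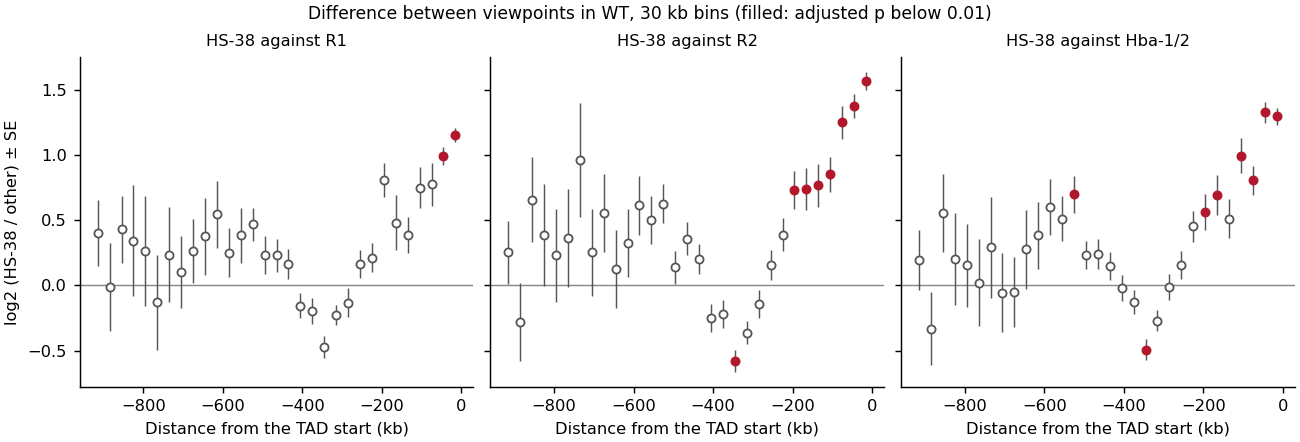
Log2 difference in density between HS-38 and R1, R2 or Hba-1/2 in WT of experiment 1, for each 30 kb bin, against the distance from the TAD start in kb, with bars for the SE and filled points for bins past the threshold. The difference is highest next to the TAD, 1.15, 1.57 and 1.30, and lowest at the second maximum, −0.47, −0.58 and −0.49.

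HS-38 also lies nearest to the interval, 58.5 kb from the TAD start, while R1, R2, *Hba-a1* and *Hba-a2* lie 65.9, 71.5, 103 and 116 kb inside. At 120 to 300 kb from its own position, HS-38 had a density of 8.51 ± 0.862, R1 of 5.72 ± 0.579, R2 of 4.91 ± 0.561 and Hba-1/2 of 8.81 ± 0.624. HS-38 was thus above R1 and R2 in 3 of 3 samples and above Hba-1/2 in 1 of 3. At 300 to 600 kb its log2 difference was −0.09 ± 0.0586 from R1, −0.15 ± 0.105 from R2 and −0.05 ± 0.0833 from Hba-1/2 (SD, n = 3), and it was above R1 and R2 in 0 of 3 samples and above Hba-1/2 in 1 of 3. At 600 to 980 kb the differences were 0.26 ± 0.133, 0.35 ± 0.115 and −0.35 ± 0.0328, above R1 and R2 in 3 of 3 samples and above Hba-1/2 in 0 of 3. These windows cover different sequence for each viewpoint, and position and kind of element cannot be told apart with 1 viewpoint of a kind at each position.

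The interval was next set against the flank at the same distances on the other side of each viewpoint. From Hba-1/2 in WT, the upstream density was 7.21 ± 0.650 and the mirrored downstream density 2.88 ± 0.244 in experiment 1, a log2 ratio of 1.32 ± 0.0657 (SD, n = 3). In experiment 2 the densities were 6.35 ± 0.415 and 2.62 ± 0.201, with a ratio of 1.28 ± 0.0592. Upstream was the higher side in 6 of 6 WT samples, with a mean of 1.30 ± 0.0617 (two-sided exact sign-flip permutation test, p = 0.03125, the smallest that 6 samples can give). The mirrored interval of Hba-1/2 starts 220 kb from the TAD start, beyond the far end of the TAD and not next to it. The upstream interval adjoins the TAD, so that the sides differ in distance from the TAD edge. For the other viewpoints the mirrored interval starts inside the TAD, 117, 132 and 143 kb from its start, and so is no flank alone. Their ratios in WT were −0.85 ± 0.0790 from HS-38, 0.12 ± 0.0116 from R1 and 0.92 ± 0.0472 from R2. In the outer part of both intervals, which is outside the TAD on both sides, upstream was the higher in 3 of 3 samples from each viewpoint, by 1.07 ± 0.0380 from HS-38, 1.01 ± 0.181 from R1, 1.23 ± 0.266 from R2 and 1.07 ± 0.116 from Hba-1/2 on the log2 scale. With 3 samples the sign-flip test cannot go below 0.25.

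Whether contacts with the upstream flank changed when CTCF sites on the downstream side were deleted was asked for each deletion against the WT samples of its own experiment. In ∆44/48 the density over the interval was 8.68, 9.71 and 9.04 from HS-38, 7.10, 7.65 and 7.23 from R1, 6.04, 7.16 and 6.58 from R2 and 6.79, 7.32 and 7.03 from Hba-1/2. These ranges overlap those of WT for every viewpoint. The log2 fold changes were −0.07 ± 0.0779, −0.04 ± 0.0854, −0.12 ± 0.0923 and −0.03 ± 0.0777 (SE), with adjusted p of 0.909, 0.903, 0.734 and 0.822 by edgeR (quasi-likelihood, Benjamini-Hochberg). The 95% intervals reached from −0.22 to 0.08, −0.21 to 0.12, −0.30 to 0.06 and −0.19 to 0.13. Without replicate 1 of ∆44/48 the changes were −0.03, −0.02, −0.06 and −0.01. With TMM factors they were −0.13, −0.20, −0.28 and −0.20, with DESeq2 −0.14, −0.20, −0.26 and −0.18, and with a library size counted more than 1 Mb from the TAD −0.16, −0.19, −0.27 and −0.18, none past the threshold.

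In ∆θ1 the density from Hba-1/2 was 6.96, 7.60 and 7.32, and in ∆θ2 it was 6.84, 7.23 and 7.76. All 3 samples of each lay above the 5.99, 6.80 and 6.24 of WT. The log2 fold changes were 0.20 ± 0.103 in ∆θ1 and 0.20 ± 0.0891 in ∆θ2, and neither passed the threshold (edgeR, adjusted p = 0.468 and 0.339; exact permutation p = 0.1 for both, the smallest that 3 against 3 samples can give). Across the chromosome 0% of the 30 kb bins were called in either deletion. The change in ∆θ1 turned to −0.11 with TMM factors, −0.02 with DESeq2 and −0.003 with the library size counted more than 1 Mb from the TAD. That in ∆θ2 was 0.03, 0.01 and 0.06 under the same scalings. In ∆θ2 the log2 fold change was 0.32 ± 0.124 in the 310 kb next to the TAD (edgeR, adjusted p = 0.437), against 0.09 in the middle and 0.05 in the far 310 kb. With TMM factors these values were 0.16, −0.065 and −0.11. In ∆θ1/θ2 the density was 6.52, 5.83 and 6.88, a log2 fold change of 0.01 ± 0.0831 (edgeR, adjusted p = 0.943), and its samples overlapped WT. The difference between the effects of ∆θ1/θ2 and ∆θ2 was −0.18 ± 0.0701 and also missed the threshold (edgeR interaction term, adjusted p = 0.136).

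**Figure D3:**
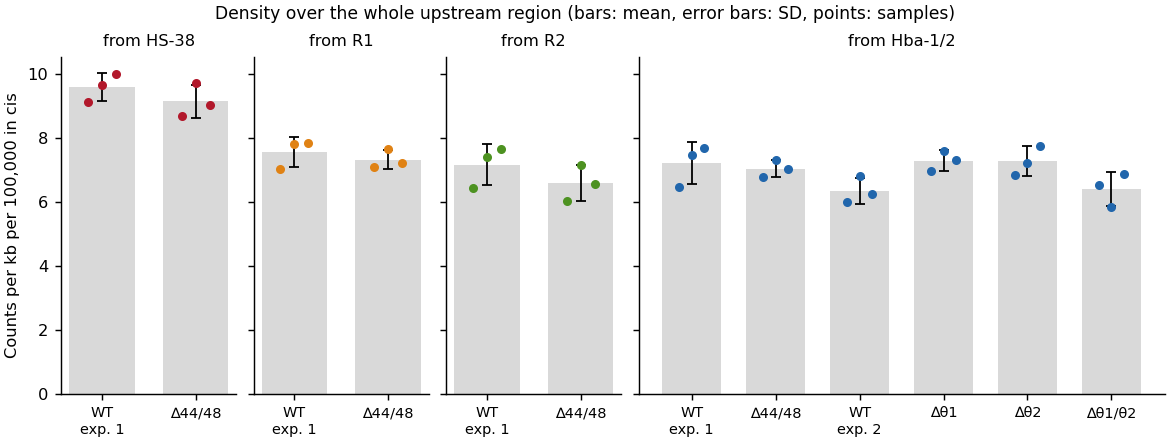
Density of contacts over the whole 930 kb (counts per kb per 100000 in cis) from each viewpoint, with bars for the mean, error bars for the SD and points for the 3 samples of each group. ∆44/48 overlaps WT from every viewpoint, and ∆θ1 and ∆θ2 lie above WT of experiment 2, with means of 7.29 and 7.27 against 6.35.

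In bins of 30 kb, 0 of the 31 were called in any of the 7 comparisons by edgeR. For ∆44/48 the share of all bins of the chromosome that was called was 0.784% from HS-38, 0.578% from R1, 0.338% from R2 and 0.45% from Hba-1/2, and for ∆θ1/θ2 it was 0.0766%. At an unadjusted p under 0.05, 2, 0, 4 and 2 of the upstream bins passed for ∆44/48 in the same order, and 2, 2 and 3 for ∆θ1, ∆θ2 and ∆θ1/θ2. These are 6.45, 0, 12.9 and 6.45% of the upstream bins against 5.30, 5.44, 4.60 and 5.31% of all bins, and 6.45, 6.45 and 9.68% against 6.34, 4.25 and 3.52%. DESeq2 called 0 as well. Of single fragments with at least 10 counts, 949, 710, 713 and 1080 were tested for ∆44/48 and 196, 525 and 380 for the θ deletions, and 0 were called. On the whole chromosome 0.673% of fragments were called from HS-38, 0.0885% from Hba-1/2 and 0% in each of the other comparisons. At an unadjusted p under 0.05, 32, 17, 28 and 37 upstream fragments passed for ∆44/48 and 6, 27 and 11 for the θ deletions, and DESeq2 called 0. That is 3.37, 2.39, 3.93 and 3.43% of the upstream fragments against 14.0, 9.99, 7.29 and 8.37% of all, and 3.06, 5.14 and 2.89% against 12.4, 7.42 and 5.47%, so that the upstream share was the lower in all 7 comparisons. The fragment nearest to a call, chosen after its values were seen, lies in an intron of *Cpeb4* (chr11:31778014-31778185). It had 10, 12 and 2 counts from Hba-1/2 in WT and 30, 7 and 13 in ∆44/48, a log2 fold change of 2.15 (edgeR, adjusted p = 0.0276). The groups overlap, and 30 of the counts stem from replicate 1, the library that stands apart. It was called without replicate 2 or replicate 3 of ∆44/48, with edgeR's adjusted p of 0.00366 and 0.00278, and not without replicate 1. Without replicate 1 another fragment was called instead, in an exon of *Gm12107* (chr11:31738153-31738308). That fragment had 28, 17 and 21 counts in WT and 2 and 3 in replicates 2 and 3 of ∆44/48 (log2 fold change −2.94, edgeR, adjusted p = 0.00709). Replicate 1 had 17, and with it the log2 fold change was −0.49 (edgeR, adjusted p = 0.996).

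**Figure D4:**
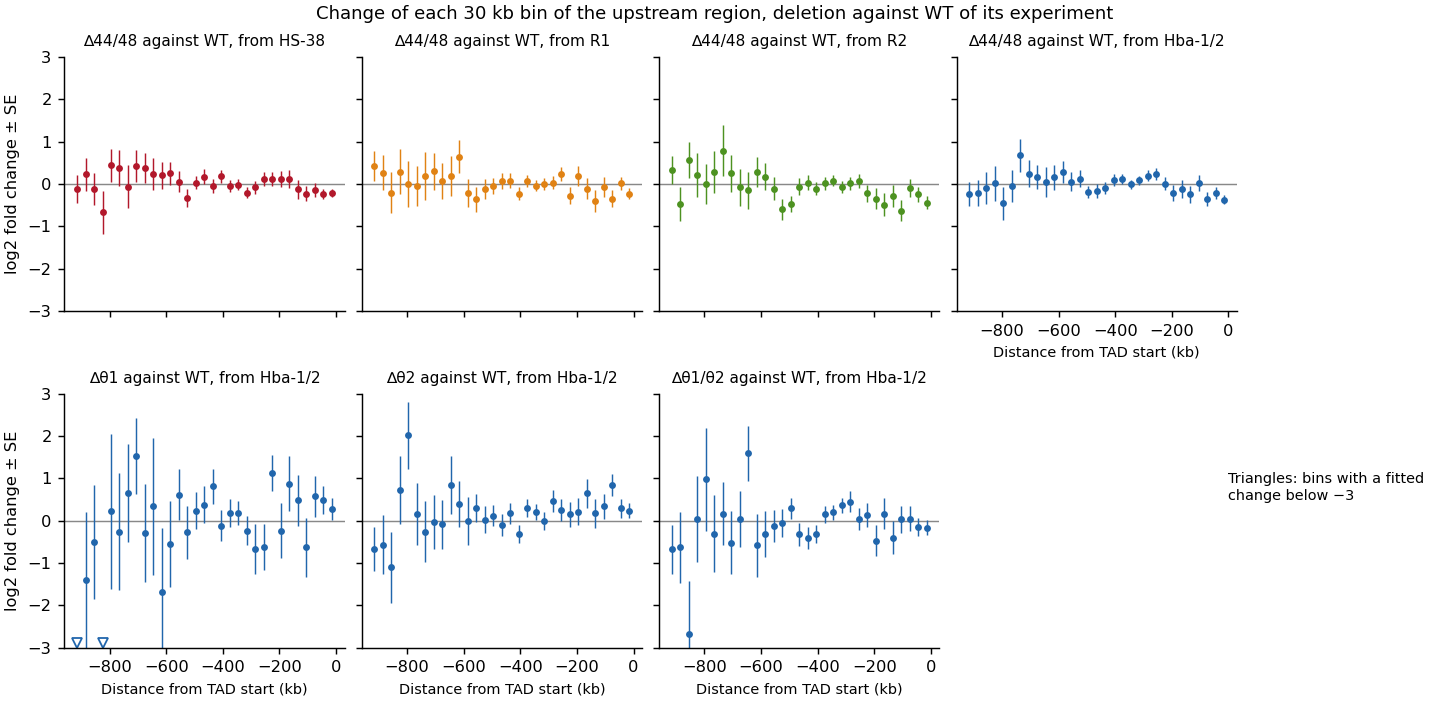
Log2 fold change of each 30 kb bin in a deletion against WT of its experiment, with bars for the SE, against the distance from the TAD start in kb, one panel for each viewpoint and deletion. Of the 31 bins, 0 passed the threshold in any panel, and the errors widen towards the far end and are widest in ∆θ1, which has the fewest counts.

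The bin next to the TAD was lower in ∆44/48 from every viewpoint without passing the threshold. From R2 its density was 20.7, 20.3 and 22.6 in WT and 14.1, 17.6 and 14.9 in ∆44/48, and the groups did not overlap. From Hba-1/2 it was 23.2, 26.2 and 27.4 in WT and 16.8, 20.8 and 21.8 in ∆44/48, again without overlap. The log2 fold changes were −0.44 ± 0.148 and −0.36 ± 0.114 (edgeR, adjusted p = 0.376 and 0.181). From HS-38 and R1 they were −0.21 ± 0.0888 and −0.23 ± 0.128 (edgeR, adjusted p = 0.667 and 0.939), and these groups did not overlap either. The 4 viewpoints were read in the same libraries and are not independent. A separation of 3 against 3 samples cannot go below 0.1 in an exact permutation test. Without replicate 1 of ∆44/48 the log2 fold changes were −0.20 from HS-38, −0.21 from R1, −0.38 from R2 and −0.27 from Hba-1/2. With TMM they were −0.39, −0.48, −0.68 and −0.59, with DESeq2 −0.37, −0.42, −0.63 and −0.54 and with the distal library size −0.30, −0.37, −0.58 and −0.50 in the same order, none past the threshold. The step at the TAD edge was 3.51 ± 0.328, 4.10 ± 0.272, 4.17 ± 0.551 and 4.17 ± 0.345 fold in ∆44/48. It overlapped WT from HS-38, R1 and Hba-1/2. From R2 it was 4.80, 3.77 and 3.95 fold in ∆44/48 and 3.36 to 3.52 fold in WT, without overlap. In experiment 2 the bin next to the TAD had 30.6, 27.2 and 32.3 from Hba-1/2 in ∆θ2 and 27.1, 23.8 and 25.6 in WT. These groups did not overlap, with ∆θ2 the higher (log2 fold change 0.24 ± 0.182, edgeR, adjusted p = 0.995). The log2 fold change was 0.27 ± 0.259 in ∆θ1 and −0.17 ± 0.175 in ∆θ1/θ2, both short of the threshold and with samples that overlapped WT.

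In the second maximum the densities in each deletion overlapped those of WT from every viewpoint. From Hba-1/2 its density was 19.6 ± 0.890 in ∆44/48 against 18.6 ± 0.950 in WT of experiment 1, and 15.5 ± 1.18 in ∆θ1, 17.0 ± 0.474 in ∆θ2 and 17.7 ± 1.93 in ∆θ1/θ2 against 15.7 ± 1.18 in WT of experiment 2. From HS-38, R1 and R2 in ∆44/48 it was 15.4 ± 0.716, 18.6 ± 0.987 and 20.0 ± 1.92 against 15.9, 19.0 and 20.2 in WT. Its share of the interval's counts did not overlap WT in ∆44/48 from R2 (48.1 to 49.7% against 45.0 to 46.0%). From HS-38, R1 and Hba-1/2 it did. From Hba-1/2 in experiment 2 the share was 30.8 to 37.0% in ∆θ1, 35.3 to 39.1% in ∆θ2 and 43.0 to 46.4% in ∆θ1/θ2. WT had 39.2 to 40.2%, without overlap and on differing sides. The *Gm12107* fragment received 14.0, 23.1 and 34.3 counts per 100000 from Hba-1/2 in ∆44/48, which overlaps WT. In ∆θ1 it received 0 counts in each sample, which allows up to 3 counts per library or 56.3 to 151 of these units, so that a difference from WT was not detectable at this depth.

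Against the mirrored downstream flank, the preference of Hba-1/2 for the upstream side was smaller in ∆44/48. The log2 ratio was 0.58, 0.50 and 0.47 in ∆44/48 and 1.30, 1.27 and 1.40 in WT, without overlap, and differed by −0.81 (exact permutation over samples, two-sided p = 0.1, the lowest that 3 against 3 allow), and by −0.84 without replicate 1 of ∆44/48. The upstream density was 7.04 ± 0.267 against 7.21 ± 0.650 in WT, and the downstream density 4.93 ± 0.330 against 2.88 ± 0.244. The ratio was thus lower with a downstream side that was higher and an upstream side that differed by less than the SD of WT. In the outer part of the intervals the ratio differed from WT by −0.32, and in the inner part by −0.895 (exact permutation p = 0.1 each). From HS-38, R1 and R2 the differences over the whole intervals were −0.33, −0.53 and −0.80 (exact permutation p = 0.1 each), with mirrored intervals that start inside the TAD and hold both deleted sites, or for R2 only HS + 48. In the outer part, outside the TAD, they were −0.28, −0.40 and −0.42 (exact permutation p = 0.1 each). In ∆θ1 the ratio was 1.19, 1.44 and 1.65, in ∆θ2 1.25, 1.15 and 0.64 and in ∆θ1/θ2 1.29, 1.20 and 1.47, against 1.32, 1.29 and 1.21 in WT of experiment 2 (exact permutation p = 0.4, 0.2 and 0.9). Replicate 3 of ∆θ2 lay below all other samples of experiment 2.

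**Figure D5:**
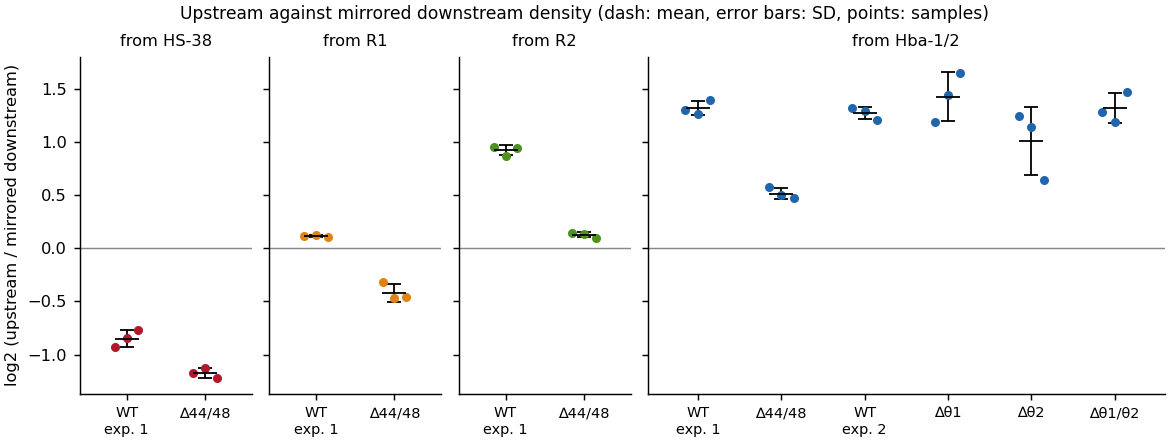
Log2 ratio of the upstream density to the density at the same distances downstream of the viewpoint, with dashes for the mean, error bars for the SD and points for the 3 samples of each group. From Hba-1/2 the ratio is 1.32 in WT of experiment 1 and 0.52 in ∆44/48, and the groups do not overlap from any of the 4 viewpoints.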

How the data were processed

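NG Capture-C of 18 Ter119+ erythroid samples (6 groups of 3) was analysed. The authors used Trim Galore and FLASH on the reads, cut them in silico at DpnII sites, mapped the pieces to mm9 by Bowtie and collapsed PCR duplicates. They deposited unnormalised counts of unique ligation events for each viewpoint and restriction fragment. Fragments without a count are not listed, and 0 columns of other samples had to be left out. No depth of coverage other than these counts is used, and intervals on shares cover counting error only.

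Fragments were assigned by midpoint to the upstream interval and to 930 kb windows, 310 kb windows and bins of 30 kb laid end to end over chromosome 11. Fragments within 1000 bp of the viewpoint read were dropped, as were those within 1000 bp of the CTCF viewpoints HS-38 and HS-39 in experiment 1. Of the other viewpoints on the chromosome only the viewpoint fragment itself was dropped. The library size was the viewpoint's remaining count in cis. The interval, the gene list and the rules for named bins and fragments (the 3 with the highest counts per viewpoint, the 3 highest and lowest bins against a falling profile) were chosen with earlier results of these data known, and 1 of the fragments so named is not reported here. The test of counts was that of edgeR 4.0.16 under R 4.3.3 (quasi-likelihood, Benjamini-Hochberg over all features of the chromosome with at least 10 counts, threshold 0.01), each deletion against WT of its own experiment, and after tests on simulated data. Within-sample ratios were set against WT with exact two-sided permutations over samples. The alternatives were DESeq2 1.42.0, TMM, a library size counted more than 1 Mb from the TAD, zones wider by 5 kb, dropping the top fragment, 1 promoter alone, other bin widths, filters and thresholds, a block on the replicate number and the omission of single replicates. Replicates differed by more than sampling noise. The p-values of edgeR use a variance estimated in part from all features tested, and so do not measure the spread between these samples alone. Figures were made with Python 3.11.15 and matplotlib 3.10.9.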

Additional observations from a re-analysis of the deposited data

Results flagged for a closer look

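The second maximum was also seen in data that enter no comparison above, the counts of viewpoints on other chromosomes. These viewpoints are the β-globin promoters (Hbb-b1 and Hbb-b2) and *Slc25A37*, which encodes mitoferrin, a mitochondrial iron importer of erythroid cells. Their counts in the upstream interval were summed over all samples of an experiment. In experiment 1 the second maximum, 16.1% of the length, held 51.9% of 79 counts from Hbb-b1 (95% exact binomial interval 40.4 to 63.3%), 52.6% of 97 from Hbb-b2 (42.2 to 62.8%) and 48.9% of 131 from Slc25A37 (40.0 to 57.7%), and it was above its share of the length in 6 of 6 samples for each. In experiment 2 it held 45.0% of 20 counts (23.1 to 68.5%), 50% of 24 (29.1 to 70.9%) and 49.3% of 75 (37.6 to 61.1%), and it was above its share of the length in 6 of 9, 8 of 9 and 8 of 12 samples that had counts there. The intervals cover counting error only, the β-globin promoters share molecules, and no fragment held more than 5 of these counts.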

How the results depend on the processing

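For the deletions, 0 of the upstream bins were called under any of the alternatives run, and no alternative brought a change of the whole interval or of a 310 kb part past the threshold. The widest errors were those of ∆θ1, the shallowest group. There the 95% interval of the whole-interval change ran from −0.004 to 0.40 on the log2 scale and that of the far part from −1.05 to 0.75. From Hba-1/2 in ∆44/48, 1 fragment was called at a threshold of 0.05 and 0 to 1 when each replicate was left out. It was the *Cpeb4* intron fragment at a threshold of 0.05 and without replicate 2 or 3 of ∆44/48, and the *Gm12107* exon fragment without its replicate 1. In the other comparisons 0 fragments were called under any alternative. The cause of the other changes below was not tested.

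Several changes turned sign. For the whole interval in ∆θ1 the log2 fold change was −0.016 with DESeq2, −0.11 with TMM and −0.0027 with the distal library size. In ∆θ2 it was 0.0071, 0.033 and 0.064, short of a sign change. These scalings also moved ∆44/48, whose change from Hba-1/2 became −0.18, −0.20 and −0.18, from R1 −0.20, −0.20 and −0.19, from R2 −0.26, −0.28 and −0.27 and from HS-38 −0.14, −0.13 and −0.16, each short of the threshold. Leave-one-out values ran from −0.11 to 0.014 for the interval in ∆44/48 from Hba-1/2 and from −0.039 to 0.077 in ∆θ1/θ2. Among the near, middle and far 310 kb, the values with DESeq2, TMM and the distal library size were −0.070, −0.074 and −0.083 for HS-38 in the middle part of ∆44/48 (−0.0066 with wider zones), −0.028, −0.025 and −0.017 for R2 in its far part, −0.14, −0.13 and −0.11 for Hba-1/2 in its far part (−0.029 with wider zones), −0.095, −0.11 and −0.082 in the far part of ∆θ2, −0.053, −0.065 and −0.042 in its middle part, and 0.060, 0.021 and 0.026 in the near part of ∆θ1/θ2. In ∆θ1 TMM gave −0.25 in the near part and −0.28 in the middle part, where the distal library size gave −0.013. Without the top fragment the far part of ∆θ2 was at −0.013 and the middle part of ∆44/48 from Hba-1/2 at 0.000053. With Hba-1 alone the far part was at 0.00028 in ∆θ1 and −0.013 in ∆θ2. With Hba-2 alone the middle part of ∆44/48 was at 0.0025 and the near part of ∆θ1/θ2 at 0.010. With single replicates left out, the middle part of ∆44/48 ran from −0.028 to 0.035 from HS-38, from −0.061 to 0.021 from R1 and from −0.091 to 0.062 from Hba-1/2, and its far part from −0.15 to 0.12 from Hba-1/2. The far part ran from −0.47 to 0.057 in ∆θ1, from −0.21 to 0.27 in ∆θ2 and from −0.24 to 0.043 in ∆θ1/θ2, whose middle part ran from −0.019 to 0.12 and near part from −0.060 to 0.077.

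The replicate numbers did not pair the samples, since the correlation of same-numbered samples ran from −0.18 to 0.095 over bins. With the replicate block ∆44/48 from Hba-1/2 was at −0.00044 in the far and 0.0021 in the middle 310 kb, and the block changed no call in any comparison.

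Between viewpoints, the log2 difference of HS-38 over the interval ran, with single replicates left out, from 0.33 to 0.37 against R1, from 0.38 to 0.44 against R2 and from 0.37 to 0.44 against Hba-1/2, and in the near part from 0.65 to 0.72 against R1 and from 0.86 to 0.92 against R2. The number of bins called was then 0 against R1, 2 to 5 against R2 and 0 to 11 against Hba-1/2, and 6 against R1 with TMM. The middle part depended on the scale. Against R2 it was at 0.018 with TMM and, past the threshold, at −0.25 with wider zones. Against Hba-1/2 it was at 0.16 with TMM, 0.096 with the distal library size, −0.24 with wider zones, again past the threshold, and −0.088 to 0.015 with single replicates left out. The far part against Hba-1/2 was at −0.075 with wider zones. The ratio of upstream to mirrored density turned to 1.07 for HS-38 in WT in the outer part, which lies outside the TAD. The difference from WT in this ratio was −0.083 for ∆θ1 in the outer part and −0.0026 for ∆θ1/θ2 in the inner part, and −0.033 to 0.11 for ∆θ1/θ2 with single replicates left out. The ratio of Hba-1/2 over both WT groups stayed at 1.28 to 1.32 with 5 of the 6 samples, with which the sign-flip test cannot go below 0.0625.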
